A study of Rattus norvegicus with 18 samples.

Results

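Chemokines are small secreted or membrane-held proteins that direct the movement of leukocytes. The transcripts of 9 chemokine genes, Ccl2, Ccl3, Ccl5, Ccl20, Cxcl1, Cxcl2, Cxcl10, Cxcl12 and Cx3cl1, were followed in rat lung after ischemia and reperfusion. The genes were chosen by name, with earlier results of these data known. Every probe set whose platform annotation gave one of these symbols was taken. All 9 were on the array, through 11 probe sets of the 15866 that measure transcripts, and all 11 were among the 10533 probe sets tested. Cxcl12 had 3 probe sets and each other gene had 1. Where a single value per gene is given, Cxcl12 stands by its probe set of highest mean value, and 7728 genes in all were represented in this way.

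The lungs came from male Sprague-Dawley rats, an outbred laboratory strain. In 6 anesthetized and mechanically ventilated rats the left chest was opened and the hilum of the left lung, which carries its airway and vessels, was clamped for 2 h without cooling. The left lungs were then reperfused and ventilated for 30 min (3 lungs) or 3 h (3 lungs), and the unclamped right lungs of the same animals were taken at 30 min (3 lungs) and 3 h (3 lungs). The 6 control lungs came from other rats and were taken directly after anesthesia and sacrifice, without ventilation, surgery or clamping being named for them, and their side is not stated. No lung with ischemia alone and no sham-operated animal was analysed here, so surgery, ventilation and reperfusion cannot be told apart in any comparison with control, and clamping cannot be told apart from body side in a comparison of left with right.

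Chemokines act through receptors on leukocytes that couple to G proteins, and heparan sulfate chains on endothelium hold them in place for passing cells. Those with the ELR sequence before a CXC cysteine pair, here Cxcl1 and Cxcl2, recruit neutrophils through Cxcr2. Inflammatory chemokine genes are transcribed rapidly by macrophages, epithelium and endothelium on stimulation by tumour necrosis factor, interleukin-1 or Toll-like receptors, through the transcription factor NF-kB. Others, such as Cxcl12, are made steadily in resting tissue.

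Promoters of 6 of the 9 genes were found in a RefSeq table on the GRCr8 build. Those of Ccl2, Ccl3 and Ccl5 were not found in it. Below are the 250 bases before the annotated start for 3 genes whose transcripts rose, Cxcl1, Cxcl2 and Cxcl10, and for Cxcl12, whose transcript did not rise. Capitals mark matches on either strand to an NF-kB motif (GGG and TTCC with any 3 bases between) or to the core of the interferon-stimulated response element (GAAA and GAAA with any 2 bases between). Each runs 5′ to 3′ on the strand of its gene. Cxcl1 lies on the minus strand (chr14:17479322-17479571), as does Cxcl2 (chr14:17467256-17467505). Cxcl10 (chr14:15988816-15989065) and Cxcl12 (chr4:152060531-152060780) lie on the plus strand.
Cxcl1: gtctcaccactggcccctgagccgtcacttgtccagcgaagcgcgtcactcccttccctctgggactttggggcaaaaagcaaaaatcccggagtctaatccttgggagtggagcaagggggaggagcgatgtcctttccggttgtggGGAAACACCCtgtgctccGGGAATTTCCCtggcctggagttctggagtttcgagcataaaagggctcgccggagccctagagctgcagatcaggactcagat
Cxcl2: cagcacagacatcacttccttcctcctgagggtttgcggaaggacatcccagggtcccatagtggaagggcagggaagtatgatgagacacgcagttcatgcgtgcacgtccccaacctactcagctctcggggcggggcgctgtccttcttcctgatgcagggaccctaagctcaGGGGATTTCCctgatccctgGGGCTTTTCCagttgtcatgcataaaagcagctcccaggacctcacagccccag
Cxcl10: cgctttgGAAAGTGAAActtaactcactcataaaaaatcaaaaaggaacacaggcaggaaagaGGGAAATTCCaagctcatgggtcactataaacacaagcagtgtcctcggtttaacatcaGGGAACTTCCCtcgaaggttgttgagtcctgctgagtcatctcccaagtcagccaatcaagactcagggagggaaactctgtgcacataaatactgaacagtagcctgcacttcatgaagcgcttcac
Cxcl12: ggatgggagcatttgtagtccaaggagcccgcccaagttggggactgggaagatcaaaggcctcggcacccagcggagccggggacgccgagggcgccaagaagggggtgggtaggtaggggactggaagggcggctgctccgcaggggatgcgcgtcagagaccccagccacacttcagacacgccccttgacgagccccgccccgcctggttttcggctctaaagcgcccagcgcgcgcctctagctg

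The NF-kB motif was present in 4 of the 6 promoters, those of Cxcl1, Cxcl2, Cxcl10 and Ccl20, and in 4.53% of the 33469 promoter windows of the same length in the table. The transcript of Ccl20 was not called in any comparison with control, so the motif was not confined to genes called higher. In Cxcl1 the matches began 102 and 84 bases before the start, and the run at 84 bases also matched on the opposite strand, shifted by a single base. In Cxcl2 they began 74 and 54 bases before the start. In Cxcl10 they began 187 and 128 bases before the start, and again the run nearer the start matched on both strands. The interferon motif was found in Cxcl10 alone among the 6, beginning 243 bases before the start, and in 3.41% of all windows. An AP-1 motif, TGANTCA, was also found only in Cxcl10 (6.34% of all windows), and TATAAA in Cxcl10 and Cx3cl1 (12.9% of all windows). None of the 4 motifs occurred in the Cxcl12 window. These are matches of letters, and binding was not measured.

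Each array was 1 lung, and 18 arrays in 5 groups were compared. The deposited values are probe set signals without replicate scans, scaled by the authors to the same trimmed mean on each array. With 3 lungs in each operated group and 6 controls, the precision is limited. Transcripts of alveolar type II cells, which make surfactant, had a mean log2 value of 11.7 to 12.4 in the 5 groups over 8 marker genes, as in lung tissue. The actin probe sets at the 3′ and 5′ ends of the transcript, whose quotient rises as RNA degrades, gave a quotient of 4.81 and 2.30 in 2 left lungs at 30 min (replicates 1 and 3) and 2.93 in 1 right lung at 30 min (replicate 3), and one of 1.31 to 1.78 on the 15 remaining arrays. Without these 3 arrays 1 left lung and 2 right lungs remain at 30 min. Differences are given as log2(signal + 25) with the standard error of a limma fit over all arrays, and a gene was called where its p-value, adjusted over all 10533 probe sets by the Benjamini-Hochberg method, was under 0.05. In bulk lung, fewer cells of a type and less RNA per cell cannot be told apart. A signal depends on its probe set, so levels are compared between lungs and not between genes.

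Ccl2 and Cxcl1 rose in the left and the right lungs at both times. Cxcl2 rose in the left lungs at both times and in the right lungs at 30 min, and Cxcl10 rose in the left lungs at both times. Among the chemokines, 4 passed as higher and 0 as lower in the left lungs at 30 min, where 8.7% of all tested probe sets were called higher and 11.2% lower. In the left lungs at 3 h 4 were higher and 1 lower, against 13.8% and 23.9% of all. In the right lungs 3 were higher and 0 lower at 30 min (6.07% and 7.29% of all), and 2 were higher and 0 lower at 3 h (8.24% and 13.2% of all). The median log2 difference of the 9 genes was 0.53, 0.48, 0.75 and 0.48 in the left lungs at 30 min, the left at 3 h, the right at 30 min and the right at 3 h, and that of all 7728 genes was -0.06, -0.13, -0.04 and -0.05. The 4 comparisons share the same 6 control lungs. Since the genes were chosen with earlier results of these data known, their counts beside the shares of all only describe them. For Ccl2, Cxcl2 and Cxcl10, 0 of the 6 control lungs exceeded the filter signal of 173.6. These 3 genes entered the test through operated lungs alone, which favours calls as higher. Counted over all tested probe sets, the median difference of the left lungs at 3 h from control was -0.12, and the changes at that time are to be read relative to this shift. With each array centred on its median, 62.2%, 60.8%, 57.0% and 55.9% of all calls were higher in the 4 comparisons, in place of 43.6%, 36.6%, 45.4% and 38.5% as scaled by the authors. Every call of a higher gene among the 9 stood on that scale, Cx3cl1 in the left lungs at 3 h and Ccl20 in the right lungs at 30 min were also called higher, and the call of Cxcl12 was lost. Without the 3 arrays of high actin quotient the differences of the left lungs at 30 min were 4.53 for Ccl2, 2.67 for Cxcl1, 3.07 for Cxcl2 and 1.62 for Cxcl10 (limma adjusted p = 0.0026, 0.0051, 0.039 and 0.05, with 1 lung left in the group, whose spread is taken from the other groups), and those of the right lungs were 2.89, 2.84 and 2.62 for Ccl2, Cxcl1 and Cxcl2 (adjusted p = 0.0047, 0.00036 and 0.016).

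**Figure D1:**
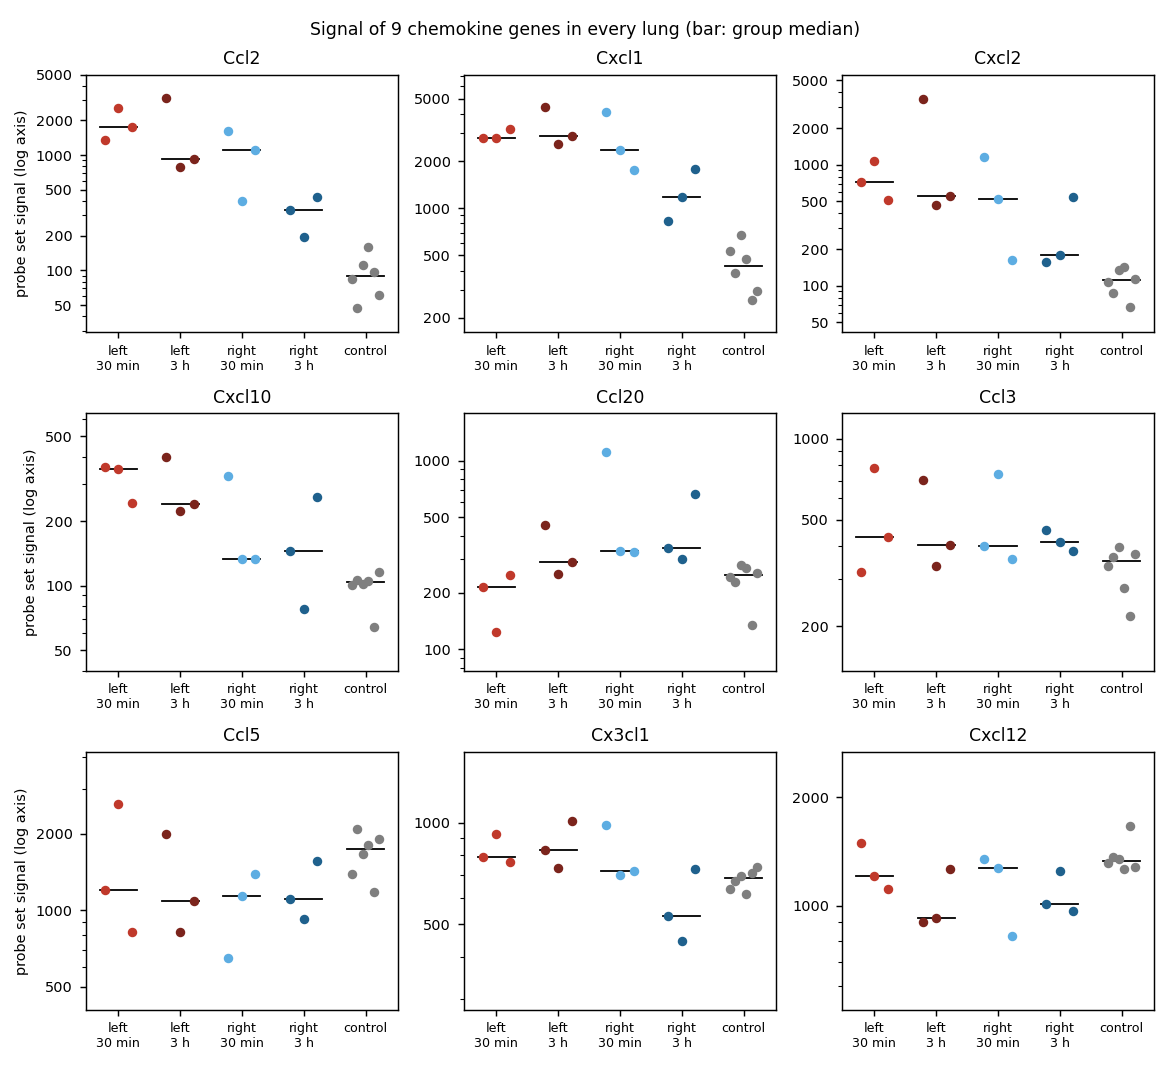
Signal of each of the 9 chemokine genes in all 18 lungs, on a log axis, with 1 point per lung and a bar at the group median. For Ccl2 and Cxcl1 every operated lung lies above all 6 control lungs, whereas for Ccl3 and Ccl5 every group overlaps the control range. For Cxcl12 the groups at 30 min overlap it and those at 3 h lie below it.

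Cxcl1, a chemoattractant of neutrophils in rodents, had signals of 2802, 2793 and 3188 in the left lungs at 30 min, then 4456, 2569.6 and 2898 at 3 h. The right lungs had 4131, 2369 and 1745 at 30 min and 835, 1173 and 1788 at 3 h. Control lungs had lowest, median and highest signals of 260.3, 429 and 680.3. Every operated lung exceeded every control lung, and the 3 left lungs at 30 min were the most alike of any group. The log2 difference from control was 2.74 ± 0.30 (6.68-fold, limma adjusted p = 1.4e-05) in the left lungs at 30 min and 2.88 ± 0.30 (7.34-fold, adjusted p = 4e-06) at 3 h. On the right side it was 2.56 ± 0.30 (5.89-fold, adjusted p = 4.2e-05) at 30 min and 1.48 ± 0.30 (2.79-fold, adjusted p = 0.0024) at 3 h. All 4 calls held when any 1 of the 18 arrays was left out.

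Cxcl2, a second neutrophil attractant whose gene lies near Cxcl1 on chromosome 14 (Cxcl2 at 17465210 to 17467255, Cxcl1 at 17477542 to 17479321, GRCr8), had signals of 729, 1077 and 513 in the left lungs at 30 min, then 3487, 463 and 551 at 3 h. The right lungs had 1159, 526 and 163 at 30 min and 158, 179 and 546 at 3 h. The control lungs ran between 66.7 and 142, with a median of 111. No operated lung fell within the control range, but 1 left lung at 3 h stood far above the other two, and at 3 h 1 right lung stood above the others of its group. Cxcl2 rose in the left lungs by 2.54 ± 0.57 at 30 min (5.82-fold, limma adjusted p = 0.0051) and by 2.92 ± 0.57 at 3 h (7.58-fold, adjusted p = 0.00096). The value at 3 h was 2.01 (adjusted p = 0.011) without the high lung, replicate 1. In the right lungs Cxcl2 rose by 1.92 ± 0.57 at 30 min (3.78-fold, adjusted p = 0.034), a call lost in 6 of 18 fits that left out 1 array, with 1.29 (adjusted p = 0.21) without right lung replicate 1. This call was also lost without the filter on low signals (limma adjusted p = 0.056). In the right lungs at 3 h the difference was 1.08, with a 95% interval of -0.13 to 2.28 (adjusted p = 0.19).

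Cxcl1, Cxcl2 and Cxcl3 are close relatives in sequence, and whether their probe sets cross-hybridise was not tested. Cxcl3, another neutrophil attractant of the same family, had 4 tested probe sets that disagreed. On the one with the largest differences the mean signal was 159.9 and 330.5 in the left lungs at 30 min and 3 h and 195.9 and 168 in the right lungs, against 36.5 in control, and it was called higher in all 4 groups (limma adjusted p of 0.0091, 0.00016, 0.004 and 0.011). Another 2 probe sets were called higher in the left lungs at 3 h and in no other group (1.12 and 1.22, adjusted p = 0.0035 and 0.019). On the brightest the control mean was 5947 and none of the 4 differences was called (-0.57, -0.30, -0.58 and 0.39 log2).

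Ccl2, which recruits monocytes through Ccr2, had the largest differences of the 9 genes in the left lungs at both times and in the right lungs at both. Its signals were 1356, 2584 and 1754 in the left lungs at 30 min, then 3131, 782 and 921 at 3 h. The right lungs had 1612, 403 and 1113 at 30 min and 337, 195 and 431 at 3 h, and the control lungs between 46.8 and 161 with a median of 89.9. No operated lung overlapped the control range, and the right lungs at 3 h lay closest to it. Against control, Ccl2 was higher by 4.04 ± 0.44 (16.5-fold, 95% interval 8.68 to 31.2, limma adjusted p = 1.3e-05) in the left lungs at 30 min and by 3.57 ± 0.44 (11.9-fold, adjusted p = 1.9e-05) at 3 h. On the right side it was higher by 3.04 ± 0.44 (8.22-fold, adjusted p = 0.00025) at 30 min and by 1.55 ± 0.44 (2.94-fold, adjusted p = 0.018) at 3 h. The last call was lost without right lung replicate 1 (1.49, adjusted p = 0.058) or replicate 3 (1.32, adjusted p = 0.094). In the left lungs at 3 h the value was 2.95 without replicate 1.

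Cxcl10 attracts T and NK cells through Cxcr3 and is induced by interferons. It had signals of 357, 353 and 243 in the left lungs at 30 min, then 399.6, 224 and 240.1 at 3 h, and in the right lungs 325, 134 and 133 at 30 min and 145, 77.6 and 260.4 at 3 h. The control lungs ran between 64.0 and 116, with a median of 104. The left lungs at both times, and the right lungs at 30 min, lay above this range, while the right lungs at 3 h had 1 lung within it and 2 above. Cxcl10 rose in the left lungs by 1.46 ± 0.29 at 30 min (2.76-fold, limma adjusted p = 0.0022) and by 1.31 ± 0.29 at 3 h (2.48-fold, adjusted p = 0.0023). In the right lungs the differences were 0.75 (95% interval 0.14 to 1.36, adjusted p = 0.097) at 30 min and 0.48 (-0.14 to 1.09, adjusted p = 0.26) at 3 h.

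Ccl20, which draws cells bearing Ccr6, had signals of 215, 123 and 248 in the left lungs at 30 min, then 454, 252 and 292 at 3 h. The right lungs had 1109, 333 and 327 at 30 min and 342, 302 and 661 at 3 h, and the control lungs between 135 and 279 with a median of 248. All 6 right lungs lay above the control range, and both groups of left lungs overlapped it. The difference of the right lungs from control was 1.04 ± 0.34 (95% interval 0.32 to 1.76, limma adjusted p = 0.053) at 30 min and 0.78 ± 0.34 (0.06 to 1.496, adjusted p = 0.12) at 3 h, so neither was called. At 30 min the value was 0.48 (adjusted p = 0.36) without right lung replicate 1, the lung at 1109. Of 4 red cell markers, 3 rose in the right lungs at 30 min, where 6.07% of all tested probe sets were called higher. Their mean log2 value lay between 10.6 and 11.1 there against 9.40 to 9.94 in control, and their part was not tested. The difference of Ccl20 from control in the left lungs was -0.25 (-0.97 to 0.47) at 30 min and 0.45 (-0.27 to 1.17) at 3 h.

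Ccl3 and Ccl5, both ligands of Ccr1, were not called in any of the 4 comparisons with control. For Ccl3 the control signals ran between 218 and 394, and each operated group had at least 1 lung above that range and at least 1 within it. Its largest difference was 0.53 (95% interval -0.04 to 1.10, limma adjusted p = 0.18) in the left lungs at 30 min, where the signals were 318, 779 and 430.4. Ccl5, which T and NK cells make in quantity, had signals of 1201, 2620.3 and 821 in the left lungs at 30 min, then 2006, 825 and 1086 at 3 h, and in the right lungs 650.1, 1143 and 1393 at 30 min and 1105, 926 and 1563 at 3 h. The control lungs had 1176 to 2097, with a median of 1738. All 4 differences of Ccl5 were below 0, between -0.69 (-1.38 to 0.01, adjusted p = 0.18) in the right lungs at 30 min and -0.25 (-0.95 to 0.44, adjusted p = 0.62) in the left lungs at 30 min. Without the arrays of high actin quotient the last was 0.66 (adjusted p = 0.36), resting on the lung at 2620.3. T and NK cell markers were lower beside it: of 12 tested, 3, 6, 4 and 6 fell in the left lungs at 30 min and 3 h and the right lungs at 30 min and 3 h, and 0 rose. Of all tested probe sets, 11.2%, 23.9%, 7.29% and 13.2% were called lower in these groups, and 8.7%, 13.8%, 6.07% and 8.24% higher. Their mean log2 value lay between 7.85 and 8.69 in the left lungs at 30 min, 7.37 and 8.38 in the left lungs at 3 h, 7.61 and 8.08 in the right lungs at 30 min and 7.61 and 7.73 in the right lungs at 3 h, against 8.23 to 8.56 in control, and no marker was near 0 on all arrays. Their part in the values of Ccl5 was not tested.

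Cxcl12, the steadily made ligand of Cxcr4 and Ackr3, had signals of 1496, 1208 and 1117 in the left lungs at 30 min, then 903, 927 and 1268 at 3 h on its brightest probe set. The right lungs had 1352, 1270.4 and 823 at 30 min and 1011, 1247 and 966 at 3 h, and the control lungs 1269.6 to 1669.5, with a median of 1332. At 3 h the left and the right lungs all lay below the lowest control lung, in each case with 1 lung just under it. The left lungs at 3 h had less Cxcl12, which fell by 0.42 as log2 (limma adjusted p = 0.048), a call that was lost in 12 of 18 fits that left out 1 array and after centring of each array on its median (-0.25, adjusted p = 0.26). The other differences were -0.11, -0.28 and -0.35 in the left lungs at 30 min and the right lungs at 30 min and 3 h. The other probe sets gave -0.58 (the dimmest, adjusted p = 0.18) and -0.04 (the one of middle brightness, adjusted p = 0.88) for the left lungs at 3 h, and the one of middle brightness was called lower in the right lungs at 3 h (-0.56, adjusted p = 0.037). Of the 12 differences from control over the 3 probe sets, 2 were called.

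Cx3cl1, held on endothelium and epithelium by a transmembrane stalk, had signals of 789, 924 and 763 in the left lungs at 30 min, then 830.1, 734 and 1009 at 3 h. The right lungs had 987, 700.2 and 718 at 30 min and 531, 448 and 728 at 3 h, and the control lungs 613 to 741 with a median of 684. The left lungs at 30 min lay above every control lung, as did 2 of the 3 left lungs at 3 h, and 2 right lungs at 3 h lay below every control lung. None of the 4 differences was called. They were 0.27 (95% interval -0.04 to 0.58) and 0.32 (0.01 to 0.63, limma adjusted p = 0.097) in the left lungs at 30 min and 3 h, and 0.22 (-0.09 to 0.53) and -0.27 (-0.58 to 0.04) in the right lungs. After median centring of the arrays the left lungs at 3 h were called higher (0.48, adjusted p = 0.021).

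**Figure D2:**
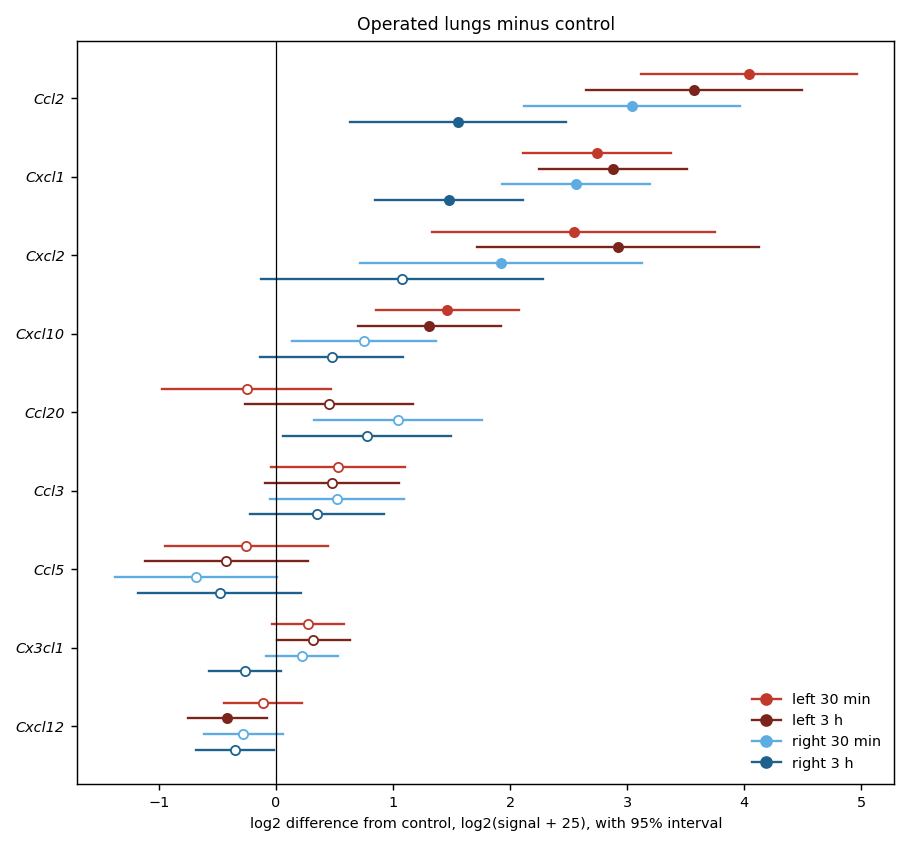
Differences of the 4 operated groups from control for the 9 genes, as log2(signal + 25) with 95% intervals. Filled points passed an adjusted p of 0.05, and they are found in Ccl2, Cxcl1, Cxcl2, Cxcl10 and, below 0, Cxcl12.

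The clamped left lungs were then set against the unclamped right lungs. At 3 h Ccl2 and Cxcl1 were higher on the left, 2 of 9 genes against 1.64% of all tested probe sets, and 0 were lower (0.636% of all). Ccl2 was 782 to 3131 in the left lungs and 195 to 431 in the right, a difference of 2.02 ± 0.51 (4.05-fold, 95% interval 1.93 to 8.48, limma adjusted p = 0.045). Cxcl1 was 2569.6 to 4456 in the left lungs and 835 to 1788 in the right, a difference of 1.40 ± 0.35 (2.63-fold, 1.59 to 4.36, adjusted p = 0.043). In both genes the groups did not overlap. The share of all probe sets without overlap was not counted in any comparison, so non-overlap only describes these lungs. Both calls stood close to the threshold: Ccl2 was called in 7 and Cxcl1 in 6 of 18 fits that left out 1 array, and without left lung replicate 1 the differences were 1.40 (adjusted p = 0.29) and 1.16 (adjusted p = 0.26). Both calls were also lost with a pseudocount of 5, without the filter on low signals, after quantile normalization, with the compared groups alone and without the arrays of high actin quotient (adjusted p between 0.051 and 0.2), and that of Ccl2 with array weights (adjusted p = 0.072). Heart muscle markers differed beside them: at 3 h the mean log2 value of 7 lay between 6.12 and 6.56 on the left and 8.21 and 10.3 on the right, and 1 of the 7 was called lower on the left. The 8 alveolar type II markers averaged 11.3 to 11.9 on the left and 12.0 to 12.3 on the right, with 1 called lower. As given above, 0.636% of all tested probe sets were called lower on the left at 3 h. Their part in Ccl2 and Cxcl1 was not tested.

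For the other genes at 3 h the difference of left from right was not called. It was 1.85 (95% interval 0.45 to 3.24, limma adjusted p = 0.15) for Cxcl2 and 0.83 (0.13 to 1.54, adjusted p = 0.2) for Cxcl10. For Cx3cl1 it was 0.59 (0.23 to 0.94, adjusted p = 0.079), with 3 left lungs at 734 to 1009 and 3 right lungs at 448 to 728 that did not overlap. Ccl3, Ccl5 and Cxcl12 had differences of 0.13, 0.06 and -0.06, and Ccl20 of -0.32, with intervals that all held 0. The median over the 9 genes was 0.59, and that over all genes -0.07.

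At 30 min 0 of the 9 genes were called between left and right by limma, where 0.038% of all tested probe sets were called, and 2 had an unadjusted p under 0.05, as did 8.59% of all. These were Ccl20, which was lower on the left by 1.29 (95% interval -2.12 to -0.46, limma adjusted p = 0.33) with no overlap between the groups, and Cxcl10, which was higher on the left by 0.71 (0.00 to 1.42, adjusted p = 0.58). For Ccl2 the difference was 1.003 (-0.06 to 2.07) and for Cxcl1 0.18 (-0.55 to 0.91). The change of the left-right difference between the times was called by limma in 0 of the 9 genes (0.228% of all), with an unadjusted p under 0.05 in 2 (7.03% of all). For Cxcl1 it was 1.22 (0.18 to 2.25, adjusted p = 0.61), for Cx3cl1 0.53 (0.03 to 1.04, adjusted p = 0.67) and for Ccl2 1.01 (-0.49 to 2.52, adjusted p = 0.8).

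**Figure D3:**
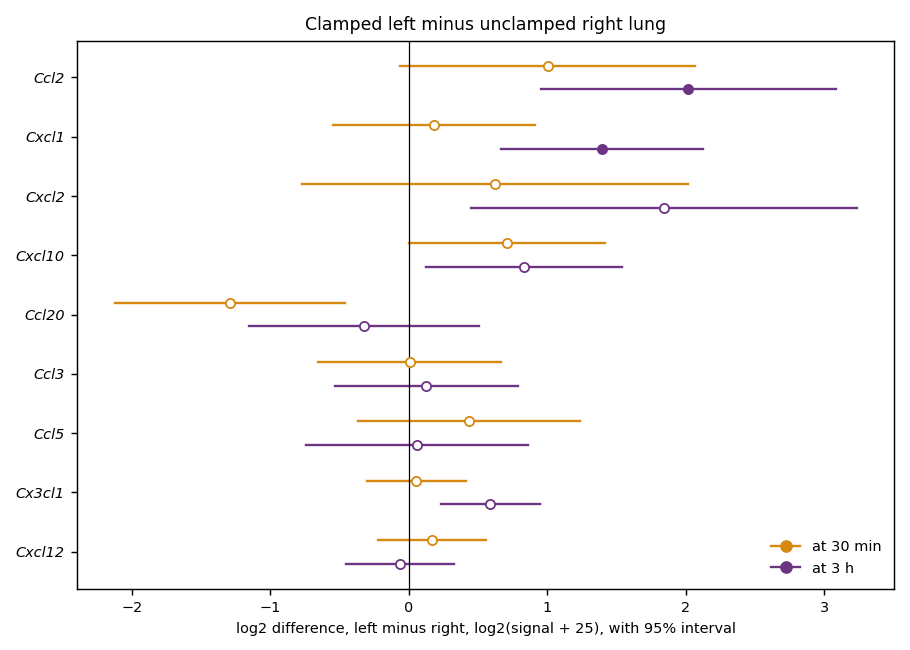
Differences of the left from the right lungs at 30 min and 3 h for the 9 genes, as log2(signal + 25) with 95% intervals. Ccl2 and Cxcl1 at 3 h are the filled points, which passed an adjusted p of 0.05, and the point of Ccl20 at 30 min lies below 0.

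Between 30 min and 3 h of reperfusion, 0 of the 9 genes were called in the left lungs by limma (3.47% of all tested probe sets) and 0 had an unadjusted p under 0.05 (22.2% of all). The left lungs at 3 h differed from those at 30 min by -0.47 (95% interval -1.54 to 0.60) for Ccl2, 0.14 (-0.59 to 0.87) for Cxcl1 and 0.38 (-1.01 to 1.77) for Cxcl2. In the right lungs 0 were called (0.199% of all) and 3 had an unadjusted p under 0.05 (13.6% of all), all lower at 3 h. These were Ccl2 at -1.48 (-2.55 to -0.42, limma adjusted p = 0.22), Cxcl1 at -1.08 (-1.81 to -0.35, adjusted p = 0.2) and Cx3cl1 at -0.49 (-0.84 to -0.13, adjusted p = 0.23).

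In 3 of the 4 operated groups 1 lung had the highest signal for 7 of the 9 genes. Left lung replicate 1 at 3 h had the highest signal of its group for 7 of the 9 genes, all but Cxcl12 and Cx3cl1, and replicate 2 the lowest for 8, where these lungs were highest in 29.0% and lowest in 28.8% of all tested probe sets. Right lung replicate 1 at 30 min was highest for 7 (31.4% of all), and right lung replicate 3 at 3 h for 7 (31.6% of all). In the left lungs at 30 min the highest signals were divided, with 2, 5 and 2 of the genes in replicates 1, 2 and 3. Control replicate 5 was lowest of the 6 controls for 6 genes (24.0% of all) and highest for Cxcl12. Left lung replicate 1 and right lung replicate 3 at 3 h may come from the same rat, which was not tested. Their deviations from group means correlated with r of 0.343. The counts are over genes measured on the same RNA, and arrays scaled together share any error of scaling.

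The order of the 5 groups by mean log2 value was, for Ccl2, left 30 min, left 3 h, right 30 min, right 3 h and control. For Cxcl1 and Cxcl2 it was left 3 h, left 30 min, right 30 min, right 3 h and control. Of the neighbours in these orders that were compared, left 3 h and left 30 min were not called apart, nor were right 3 h and right 30 min, although for Ccl2 and Cxcl1 the interval between the right groups lay below 0. In Ccl2 and Cxcl1 right 3 h was called apart from control. The left lungs at 3 h were not set against the right lungs at 30 min. Cxcl10 had the order of Ccl2. Ccl20 ran right 30 min, right 3 h, left 3 h, control and left 30 min, and Cx3cl1 ran left 3 h, left 30 min, right 30 min, control and right 3 h. Control came last in Ccl3 and first in Ccl5 and Cxcl12, and no neighbours in those orders were called apart except that left 3 h, last in Cxcl12, was called lower than control. The genes of most like pattern, by the mean absolute gap between 5 centred group means among 7727 other genes, were Areg (0.24) and Il6 (0.26) for Ccl2, where the median gap of all genes was 1.35. For Cxcl1 they were Cxcl2 (0.23) and Coq10b (0.25), with a median of 0.98, and for Cxcl2 Coq10b (0.22) and Fos (0.22), with a median of 0.95. For Cxcl10 they were Slfn4 (0.08) and Col7a1 (0.08), with a median of 0.51, and for Ccl20 Rasgrf1 (0.09) and Fli1 (0.14), with a median of 0.46. The flat patterns of the other members had many near matches, of which the first were Ddx41 (0.02) for Ccl3, Mal (0.03) for Ccl5, C4h2orf42 (0.01) for Cxcl12 and Pdlim3 (0.04) for Cx3cl1.

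Il6, an interleukin of the acute phase, had mean signals of 1157, 1675, 481 and 321 in the left lungs at 30 min and 3 h and the right lungs at 30 min and 3 h, against 47.1 in control. Areg, a ligand of the epidermal growth factor receptor, had 1655, 1476, 843 and 452, against 88.7 in control. In both, as in Ccl2, the means ran downward from left to right lungs.

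Further genes of the pathway were taken from 6 lists, which held 30 calls in the left lungs at 30 min and 20 in the right lungs at 30 min, and 14 and 16 of these stood without the arrays of high actin quotient, which leaves 1 left and 2 right lungs. The differences themselves were at least as large without them for 24 of the 30 and 14 of the 20. Of all tested probe sets, as given above, 8.7% and 11.2% were called higher and lower on the left at 30 min, 13.8% and 23.9% on the left at 3 h, 6.07% and 7.29% on the right at 30 min and 8.24% and 13.2% on the right at 3 h, and the counts of each list are to be read against these. The control means of Ccl17, Tnf, Il1r2, Selp and Sele, given below, lie under the filter signal of 173.6. Such genes entered the test mainly through operated lungs, which favours calls as higher and raises the list counts. Of 11 further chemokine ligands tested, 2 rose and 1 fell in the left lungs at 30 min, 4 rose and 1 fell at 3 h, and 2 and 1 rose in the right lungs at 30 min and 3 h, with 0 falling. The 1 of 11 that fell is below the share of all at either time. Cxcl3 is counted among the 11 by its brightest probe set, which was not called, although its other probe sets were called higher in the left lungs at 3 h. Ccl17, a ligand of Ccr4, had mean signals of 455 ± 71.4 and 336 ± 124 in the left lungs at 30 min and 3 h, 326 ± 184 and 204 ± 124 in the right lungs at 30 min and 3 h, and 91.5 ± 22.1 in control (SD). It rose in the left lungs by 2.05 ± 0.36 and 1.59 ± 0.36 (limma adjusted p = 0.00093 and 0.0029) and in the right lungs at 30 min by 1.47 ± 0.36 (adjusted p = 0.014, lost without right lung replicate 1). Cxcl14, a chemokine of epithelium, rose in all 4 groups, with means of 2016, 2577, 2405 and 2903 against 1334 in control, and its largest difference was 1.11 ± 0.13 (adjusted p = 1.7e-05) in the right lungs at 3 h. Cxcl16 (0.65 ± 0.15, adjusted p = 0.0034) and Cxcl9 (0.63 ± 0.18, adjusted p = 0.011) rose in the left lungs at 3 h, but Cxcl9 lost its call without left lung replicate 1. Cxcl13, which attracts B cells, fell by 0.86 and 0.83 in the left lungs at 30 min and 3 h (adjusted p = 0.041 and 0.03), calls that were each lost in 5 of 18 fits without 1 array and after median centring (adjusted p = 0.069 and 0.084). The median difference of the 11 ligands was -0.02, 0.05, 0.18 and 0.11 in the order left 30 min, left 3 h, right 30 min and right 3 h.

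Of 9 chemokine receptors tested, 1 rose and 2 fell in the left lungs at 30 min, 2 and 2 at 3 h, and in the right lungs 1 rose and 2 fell at 30 min and 1 and 1 at 3 h. Their medians were -0.36, -0.21, -0.08 and -0.01, and the 2 of 9 that fell on the left at 3 h are close to the 23.9% of all. The receptors of Cxcl12 moved in opposite directions in the 3 groups in which both were called. Ackr3, which takes up Cxcl12 without signalling through G proteins, rose in all 4 groups by 0.81, 0.95, 0.82 and 0.73 (each ± 0.21, limma adjusted p = 0.013, 0.0024, 0.018 and 0.021), and apart from the left lungs at 3 h each call was lost without 1 array. Cxcr4 fell by 0.95 in the left lungs at 3 h (adjusted p = 0.0024), by 1.26 in the right lungs at 30 min (adjusted p = 0.00097) and by 1.23 at 3 h (adjusted p = 0.00074). In the left lungs at 30 min its difference was -0.45 (adjusted p = 0.15) on this probe set and -0.80 (adjusted p = 0.0019) on another. All 3 probe sets of Cxcr4 were called lower in the other 3 groups. The T and NK cell markers given beside Ccl5 were lower in the same lungs, and their part in Cxcr4 was not tested.

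Among receptors of the inflammatory ligands, Ccr1, which binds Ccl3 and Ccl5, rose in the left lungs at 3 h by 1.57 ± 0.42 (limma adjusted p = 0.0072). Its 3 signals there lay between 379.9 and 1434, against 141 to 252 in control, and the call was lost without left lung replicate 1. Cxcr2, the receptor of Cxcl1 and Cxcl2, had mean signals of 125, 190.5, 123 and 166 in the 4 operated groups against 94.1 in control and was not called. Cxcr1 fell in the left lungs at 30 min by 0.82 ± 0.17 (adjusted p = 0.0024) and was called lower at 3 h and in the right lungs at 30 min with adjusted p of 0.023 and 0.048, the last in 5 of 18 fits without 1 array, and both of these calls were lost after median centring (adjusted p = 0.097 and 0.058). Cxcr3 and Cx3cr1 were not called in any comparison with control, and Ccr2, the receptor of Ccl2, stayed under the signal filter, with group means of 67.6 to 86.4. Neutrophil markers moved beside these genes: of 7 tested, 3 rose in each operated group (S100a8, S100a9 and Mmp8), and 2 fell in all but the right lungs at 3 h (Cxcr1 and Fcgr3a). Over the 4 groups, 6.07% to 13.8% of all tested probe sets were called higher and 7.29% to 23.9% lower. The mean log2 value of the 7 was 8.78 to 10.1 in the left lungs at 30 min, 9.17 to 10.4 at 3 h, 8.89 to 9.89 in the right lungs at 30 min and 9.17 to 10.2 at 3 h, against 8.37 to 8.97 in control. Their part in the chemokine values was not tested.

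**Figure D4:**
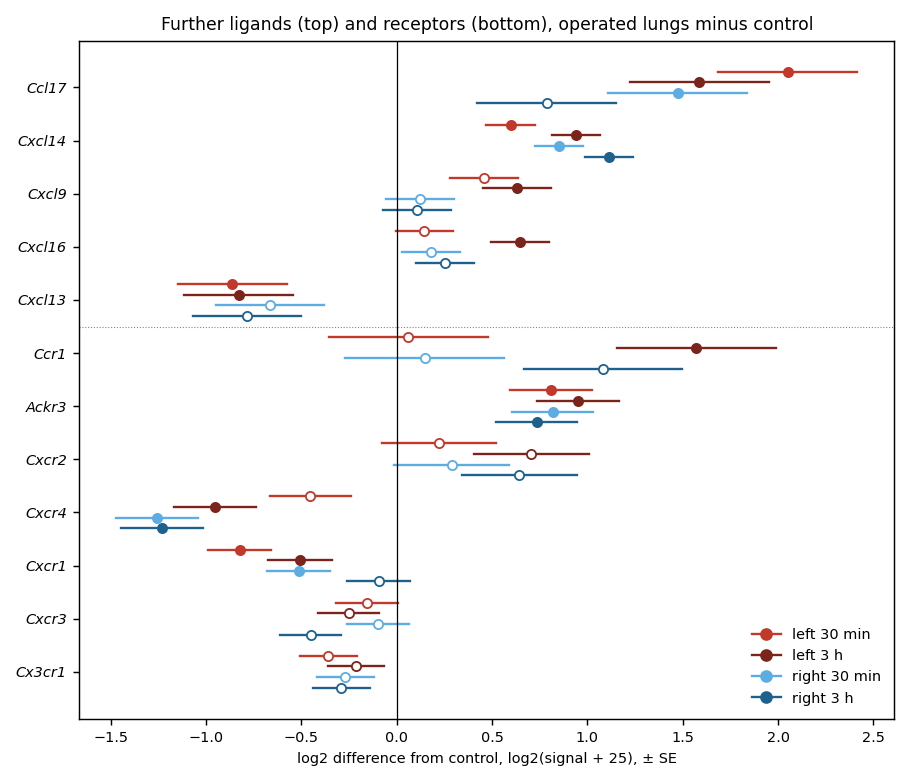
Differences of the 4 operated groups from control for 5 further ligands (above the dotted line) and 7 receptors (below it), as log2(signal + 25) ± SE. Filled points passed an adjusted p of 0.05. Ccl17 and Cxcl14 lie above 0 and Cxcr4 below it, with Ackr3 above 0 in all 4 groups.

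Signals that act upstream of chemokine transcription were also counted. Of 16 tested signals of the TNF, interleukin-1 and Toll-like receptor pathways and NF-kB subunits, 6 rose and 1 fell in the left lungs at 30 min, 11 and 1 at 3 h, and in the right lungs 4 and 1 at 30 min and 3 and 1 at 3 h, with medians of 0.36, 0.86, 0.28 and 0.24. Cd14, the co-receptor for bacterial lipopolysaccharide, rose in all 4 groups by 1.17, 2.31, 1.03 and 1.90 (limma adjusted p = 0.016, 5.9e-05, 0.041 and 0.00059), and the call in the right lungs at 30 min stood in 11 of 18 fits without 1 array. Its call in the left lungs at 30 min was lost without left lung replicate 2. Tnf rose in the left lungs by 1.55 at 30 min (adjusted p = 0.00071) and 0.92 at 3 h (adjusted p = 0.012), and in the right lungs at 30 min by 1.31 (adjusted p = 0.0036), with mean signals of 202, 123 and 176 against 54.4 in control. The call of Tnf at 3 h was lost without left lung replicate 3. Tlr4 was the 1 that fell, by 1.04, 1.16, 0.89 and 1.09 in the 4 groups. Between left and right at 3 h, the NF-kB subunits Rela (0.76 ± 0.16, adjusted p = 0.02), Relb (0.86 ± 0.18, adjusted p = 0.02), both lost without left lung replicate 1 or right lung replicate 1 or 2, and Nfkb2 (0.75 ± 0.19, adjusted p = 0.048) were higher on the left, the last in 5 of 18 fits without 1 array.

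Inhibitors that NF-kB and cytokines induce were counted next. Of 9 tested, 6, 7, 3 and 4 were higher in the left lungs at 30 min and 3 h and the right lungs at 30 min and 3 h, and 0 were lower, with medians of 0.83, 0.83, 0.51 and 0.36. Nfkbia, which holds NF-kB in the cytoplasm, rose by 1.13, 1.14, 1.02 and 1.02 (limma adjusted p = 0.0014, 0.00062, 0.0042 and 0.0029), nearly alike in the left and right lungs. Il1r2, the decoy receptor for interleukin-1, had mean signals of 788, 2532, 534 and 1401, against 73.6 in control, and was called in all 4. Socs3, an inhibitor of cytokine signalling, rose by 1.08, 1.92, 1.10 and 1.43, and its calls at 30 min were lost without left lung replicate 2 and right lung replicate 1.

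In the interferon group, the background to Cxcl10, 6 of 17 genes rose and 0 fell in the left lungs at 30 min and 5 rose and 1 fell at 3 h, whereas 3 and 1 rose in the right lungs at 30 min and 3 h, with 0 falling, and the medians were 0.33, 0.21, 0.13 and -0.06. The gene that fell, Mx2, lost its call after median centring (-0.41, adjusted p = 0.13). Mx2 rose at 30 min by 0.89 on the left and 0.96 on the right (limma adjusted p = 0.0061 and 0.0058, the right call lost without right lung replicate 1). From 30 min to 3 h it was lower by 1.47 on the left (adjusted p = 0.0034, and 0.004 after centring). On the right it was lower by 1.22 (adjusted p = 0.043, in 5 of 18 fits without 1 array). Ifngr1, a chain of the interferon gamma receptor, rose in all 4 groups, by 0.73, 0.74, 0.63 and 0.64 (limma adjusted p = 0.00025, 0.00011, 0.0012 and 0.00075). Ifit3, an interferon-stimulated gene, rose in the left lungs by 1.26 and 1.33 (adjusted p = 0.012 and 0.0045, lost without replicate 1 or 2 at 30 min and without replicate 1 at 3 h) and in the right lungs at 30 min by 1.10 (adjusted p = 0.034), the last in 12 of 18 fits without 1 array. Irf1, a transcription factor induced by interferon gamma, was higher in the left than in the right lungs at 3 h by 0.61 ± 0.15 (adjusted p = 0.038), in 11 of 18 fits without 1 array.

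Genes for the presentation of chemokines and for leukocyte adhesion changed in both directions. Of 18 tested, 4 rose and 1 fell in the left lungs at 30 min, 7 and 5 at 3 h, and in the right lungs 2 and 2 at 30 min and 5 and 1 at 3 h, with medians of 0.11, 0.41, 0.06 and 0.11. The 5 of 18 that fell on the left at 3 h are close to the 23.9% of all probe sets, and 3 of the 5 (Sdc2, Sdc3 and Ext2) lost their call after median centring (adjusted p = 0.2, 0.054 and 0.2). Of the genes that build heparan sulfate, Ext1 rose in all 4 groups by 0.99, 1.33, 0.98 and 0.96 (limma adjusted p = 8.4e-05, 2.5e-06, 0.00014 and 0.0001), and Ndst1, which sulfates the chain, fell by 1.32, 0.82, 1.04 and 0.59 (adjusted p = 0.00019, 0.0033, 0.002 and 0.036, the last in 11 of 18 fits without 1 array). The endothelial selectins that slow leukocytes on the vessel wall were higher in the left lungs. Selp had mean signals of 395 and 965 in the left lungs at 30 min and 3 h against 78.7 in control (adjusted p = 0.0033 and 5.5e-05), and Sele had 156 and 333 against 22.2, a control level at which the pseudocount would set the fold. In the right lungs at 3 h both were also called higher (adjusted p = 0.0041 and 0.016), the call of Sele being lost without right lung replicate 2 or 3. Between left and right at 3 h the adhesion molecules Icam1 (0.62 ± 0.15, adjusted p = 0.036) and Vcam1 (0.61 ± 0.15, adjusted p = 0.045) were higher on the left, in 11 and 5 of 18 fits without 1 array.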

How the data were processed

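Total RNA of 18 frozen rat lungs was hybridised, 1 lung per array, to 1-colour Affymetrix rat 230A arrays, per the labels. The deposited values are probe set intensity signals on a linear scale, made by the authors with MAS5 (its version is not given), and GeneSpring 7.2 is named for later analysis, both per the submitters' processing notes and design text. The 2% trimmed mean is 500.1 on every deposited array, and this scaling was kept.

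Of 15923 probe sets, 57 were array controls and were dropped. The log2 of signal + 25 was taken, and the 10533 probe sets with at least 3 arrays above the 40th percentile of all signals (173.6) were tested. Fold changes refer to this scale, which understates changes of low signals. Symbols came from the platform annotation (1 symbol for 12783 probe sets, several for 312, none for 2771). They were checked by Entrez identifier against RefSeq, which updated 0. Only probe sets with 1 symbol were named.

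Group means were fitted with limma 3.58.1 (lmFit and eBayes, two-sided) in R 4.3.3 over all 18 arrays, with Benjamini-Hochberg adjustment within each comparison. Tables and figures were made with Python 3.11.15, pandas 2.3.3, numpy 2.4.6, scipy 1.17.1 and matplotlib 3.10.9. Tested on simulated arrays with 200 changed of 10533 probe sets, the fit recovered 92.2% of 2-fold changes for left 30 min versus control, 87.6% for left versus right at 3 h and 56.4% for the interaction of side and time. These are averages over probe sets drawn from all, with simulated noise independent between probe sets. They do not give the recovery for the chemokines, where Cxcl2 had a standard error of 0.57 against control.

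The genes and the lists were chosen with earlier results of these data known. All 9 genes and the receptors of these chemokines could be named. From each list all called genes could be named where at most 5 passed, and otherwise the 4 of smallest adjusted p. For each of the 9 genes the 2 genes of most like pattern were taken. Cxcl3, Mx2, Sdc2, Sdc3, Ext2 and the second probe sets of Cxcr4 were chosen for mention after their values were seen.

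Each operated rat gave a left and a right lung, but the labels do not tie replicate numbers to rats. Deviations from group means of same-numbered left and right lungs correlated with r of 0.122, 0.307 and 0.146 (30 min) and -0.165, 0.0663 and -0.151 (3 h). Lungs of different number had r of -0.289 to 0.0994 at 30 min. At 3 h r was 0.343 for left 1 with right 3, 0.22 for left 2 with right 1 and 0.161 for left 3 with right 2. The remaining pairs at 3 h had r of -0.236 to -0.0173. The numbers may thus pair lungs at 30 min and not at 3 h, where lungs of different number may share a rat. Which lungs came from the same rat is not known. A fit with the number as a block was run as an alternative, as were other pseudocounts, filters and scalings, array weights, fits of the compared groups alone, and fits that left out arrays. Batches of arrays are not given in the sources used here.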

Additional observations from a re-analysis of the deposited data

Results flagged for a closer look

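In 3 of the 9 genes 1 control lung stood far from the other 5. Its gap to the nearest, divided by the range of the 6 log2 values, exceeded the 95% critical value of Dixon's test for 6 samples. Chance exceeds that value in about 1 of 20 groups, and the share of all genes above it was not counted. The lowest control signal of Ccl20 was 134.8, the lowest of Cxcl10 was 63.95 and the highest of Cxcl12 was 1669.5. All 3 values belong to control replicate 5, which was lowest of the 6 controls in 24.0% and highest in 20.7% of all tested probe sets.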

How the results depend on the processing

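Among the 9 genes, the counts called higher or lower kept within 1.5 times their value in most settings. Of the differences between right 3 h and control, 5 genes were called when only the compared groups were fitted, in place of 2. Of the differences between left and right at 3 h, 0 in place of 2 were called with a pseudocount of 5, without the filter, after quantile normalization, with the compared groups alone, and without the arrays of high actin quotient, and 1 with array weights. When each array was left out in turn, the number called ran between 4 and 4 for left 30 min, 4 and 5 for left 3 h, 2 and 4 for right 30 min and 1 and 3 for right 3 h against control. It ran between 0 and 4 for left versus right at 3 h, with 4 without right lung replicate 3, and was 0 throughout for left versus right at 30 min, for both comparisons between times and for the interaction of side and time. With the replicate number as a block, the counts were those of the fit without it (4, 5, 3, 2, 0, 2, 0, 0 and 0), and the block changed no call of the 9 genes. The consensus correlation within blocks was 0.0745. Since the numbers may not mark rats at 3 h, this fit cannot show how pairing would alter the calls there. Over single genes, 2128 values kept their direction and side of the threshold, 68 that were not called changed sign, 60 lost their call and 21 gained one, and no called value changed sign. With each array centred on its median, 85.0% of calls between left and right at 3 h were higher and 63.6% of those between left 3 h and left 30 min (56.8% with quantile normalization), in place of 72.1% and 45.9%. Signals near background limit Cxcl10, Cxcl2 and Ccl2 in control lungs, where the pseudocount compresses the fold.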
